A study of Mus musculus with 30 samples.

Results

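The AP-1 and Egr immediate early genes were followed in mouse secondary induced pluripotent stem cells (iPSCs) as 10 genes chosen by symbol from the 22477 rows of an RNA-seq expression table. The members are the Fos family (Fos, Fosb, Fosl1, Fosl2), the Jun family (Jun, Junb, Jund), the zinc finger genes Egr1 and Egr2, and Atf3, and each was found once. All cells came from a secondary iPSC line in which doxycycline (dox) induces transgenes of the reprogramming factors Oct4, Sox2, Klf4 and cMyc, together OSKM, and which has a GFP reporter in a Nanog allele, so the controls hold these elements too. The time course took cells at 0, 24, 36, 48, 60, 72 and 96 h after a change from 2i/LIF to N2B27 medium without 2i and LIF. Cells withdrawn for 0, 24, 48 or 96 h were also re-seeded and kept for 48 h in serum/LIF, either without dox (–dox) or with 2 µg/ml of it to induce OSKM (+dox). These 15 conditions had 2 replicates each, 30 samples in all. The line was maintained on mouse embryonic fibroblast (MEF) feeders, and before withdrawal single cells were seeded on gelatin-coated plates in 2i/LIF. In the paper's colony assay, withdrawn cells were re-seeded on MEF feeders. The surface on which the RNA-seq cells were re-seeded is not stated in the sources used here.

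Immediate early genes are switched on within minutes of a stimulus, from transcription factors that the cell already holds. Growth factor signalling through MEK and ERK phosphorylates the ELK partners of SRF, which bind the promoters of Fos and Egr genes, while JNK, p38 and stress kinases act on Jun and Atf3. Fos proteins do not pair with each other and bind DNA as dimers with Jun proteins, and this pair is AP-1; ATF and other bZIP proteins can take the place of either partner. 2i medium contains a MEK inhibitor and a GSK3 inhibitor, so its withdrawal lifts a block on ERK. AP-1 factors are abundant in fibroblasts and many other somatic cells.

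The 250 bases before the start site are shown for Fos, Jun, Junb and Atf3, which were among the genes at least 2-fold higher at 96 h of withdrawal, so that the letters known to be bound by bZIP proteins can be seen. They are RefSeq sequences of GRCm38.p6, 5′ to 3′ on the strand of the gene, and capitals mark TGACG (or CGTCA, the same letters on the other strand) and TGACATCA. For Atf3 the start is that of a RefSeq transcript that begins inside the annotated gene, and the gene itself begins further upstream. For Junb the RefSeq start, 84978748, lies just upstream of the annotated gene, which begins at 84978718. The window of Fos is chr12:85473640-85473889 on the plus strand. The windows on the minus strand are chr4:95052223-95052472 for Jun, chr8:84978749-84978998 for Junb and chr1:191183334-191183583 for Atf3.
Fos: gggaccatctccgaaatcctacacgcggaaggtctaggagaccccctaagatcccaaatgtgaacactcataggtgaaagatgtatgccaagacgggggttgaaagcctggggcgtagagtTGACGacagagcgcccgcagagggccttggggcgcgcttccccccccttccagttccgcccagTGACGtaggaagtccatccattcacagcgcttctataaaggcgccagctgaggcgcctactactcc
Jun: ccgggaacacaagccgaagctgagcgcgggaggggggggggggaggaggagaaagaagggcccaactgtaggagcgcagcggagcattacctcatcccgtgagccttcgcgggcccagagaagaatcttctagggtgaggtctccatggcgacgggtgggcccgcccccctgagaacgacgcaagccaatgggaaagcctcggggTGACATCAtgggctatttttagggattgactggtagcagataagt
Junb: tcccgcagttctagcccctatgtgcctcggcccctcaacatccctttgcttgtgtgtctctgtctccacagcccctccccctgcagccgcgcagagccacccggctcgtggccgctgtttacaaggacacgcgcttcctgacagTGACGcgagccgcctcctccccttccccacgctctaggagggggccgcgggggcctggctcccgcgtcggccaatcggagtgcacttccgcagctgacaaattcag
Atf3: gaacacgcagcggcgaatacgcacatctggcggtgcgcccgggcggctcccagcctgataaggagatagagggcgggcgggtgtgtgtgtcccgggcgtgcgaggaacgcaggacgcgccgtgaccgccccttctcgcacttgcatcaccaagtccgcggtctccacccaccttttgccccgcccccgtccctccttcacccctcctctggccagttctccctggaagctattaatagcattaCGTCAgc

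Counting the base before the start as -1, TGACG covers positions -129 to -125 and -66 to -62 of Fos and -106 to -102 of Junb. It is also in windows of Fosb and Egr2, which are not shown. Jund, also at least 2-fold higher at 96 h, has none of the letters searched here in its window. TGACATCA, a variant of the cyclic AMP response element, covers -45 to -38 of Jun, and CGTCA covers -7 to -3 of Atf3. Searched on both strands, TGACG is present in 17.8% of 32851 RefSeq promoter windows of this length and TGACATCA in 2.93%. The pattern TGANTCA, which takes in the AP-1 site and allows any base at N, is present in 6.75% of the windows. The full response element TGACGTCA is in 1.55% and the Egr site GCGNGGGCG in 4.7%. This Egr site is in the windows of Fosb and Fosl2, and TGANTCA and TGACGTCA are in none of the members' windows. The SRF site known as the CArG box, in 1.47% of the windows, is in windows of Egr2, as is the ETS site CCGGAA, found in 12% of them; TGACG and CGTCA are parts of TGACGTCA and are counted wherever they occur. Windows were matched for 8 of the 10 members, with Egr1 and Fosl1 the others. Letters further upstream than 250 bases were not searched. The lack of a match, such as of a CArG box for Fos, therefore holds for the window only, and Egr1 and Fosl1 were not searched. These matches describe letters and not bound sites.

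In the mm10 annotation (Gencode M21), Fos lies at chr12:85473890-85477273, Jun at chr4:95049034-95052222, Junb at chr8:84974484-84978718, Jund at chr8:70698949-70700616 and Atf3 at chr1:191170296-191218039. Fosb lies at chr7:19302696-19310051, Fosl1 at chr19:5447547-5455946, Fosl2 at chr5:32135801-32157842, Egr2 at chr10:67535475-67542188 and Egr1 on chromosome 18. Jun, Junb and Jund are each annotated with 1 exon.

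Expression is given as FPKM, a fragment count scaled for transcript length and for library size, so that levels can be set beside each other between genes. The authors deposited 1 FPKM value for each gene and condition, with both replicates combined and no read counts. No value here has a replicate spread, no difference could be tested, and which neighbours in an order of levels differ beyond replicate error is not known. A gene was counted as higher or lower when the ratio of its FPKM values was 2-fold or more and the larger of them reached 1 FPKM. The same count over the whole table is given as the background, and because only the higher value has to reach 1 FPKM, a low gene can be counted only through the condition where it is high. Relative depth was read from the steps between low values: for a 2 kb gene, 1 FPKM equalled 28.7 to 46.9 steps during withdrawal and in the cells from 48 or 96 h that were re-seeded, and 85.5 to 99.3 steps in those from 0 or 24 h. These steps are not counts. On the same scale, Egr2 at 0 h stood at 1.63 steps and Fosb at 7.76, only a few steps above 0.

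**Figure D1:**
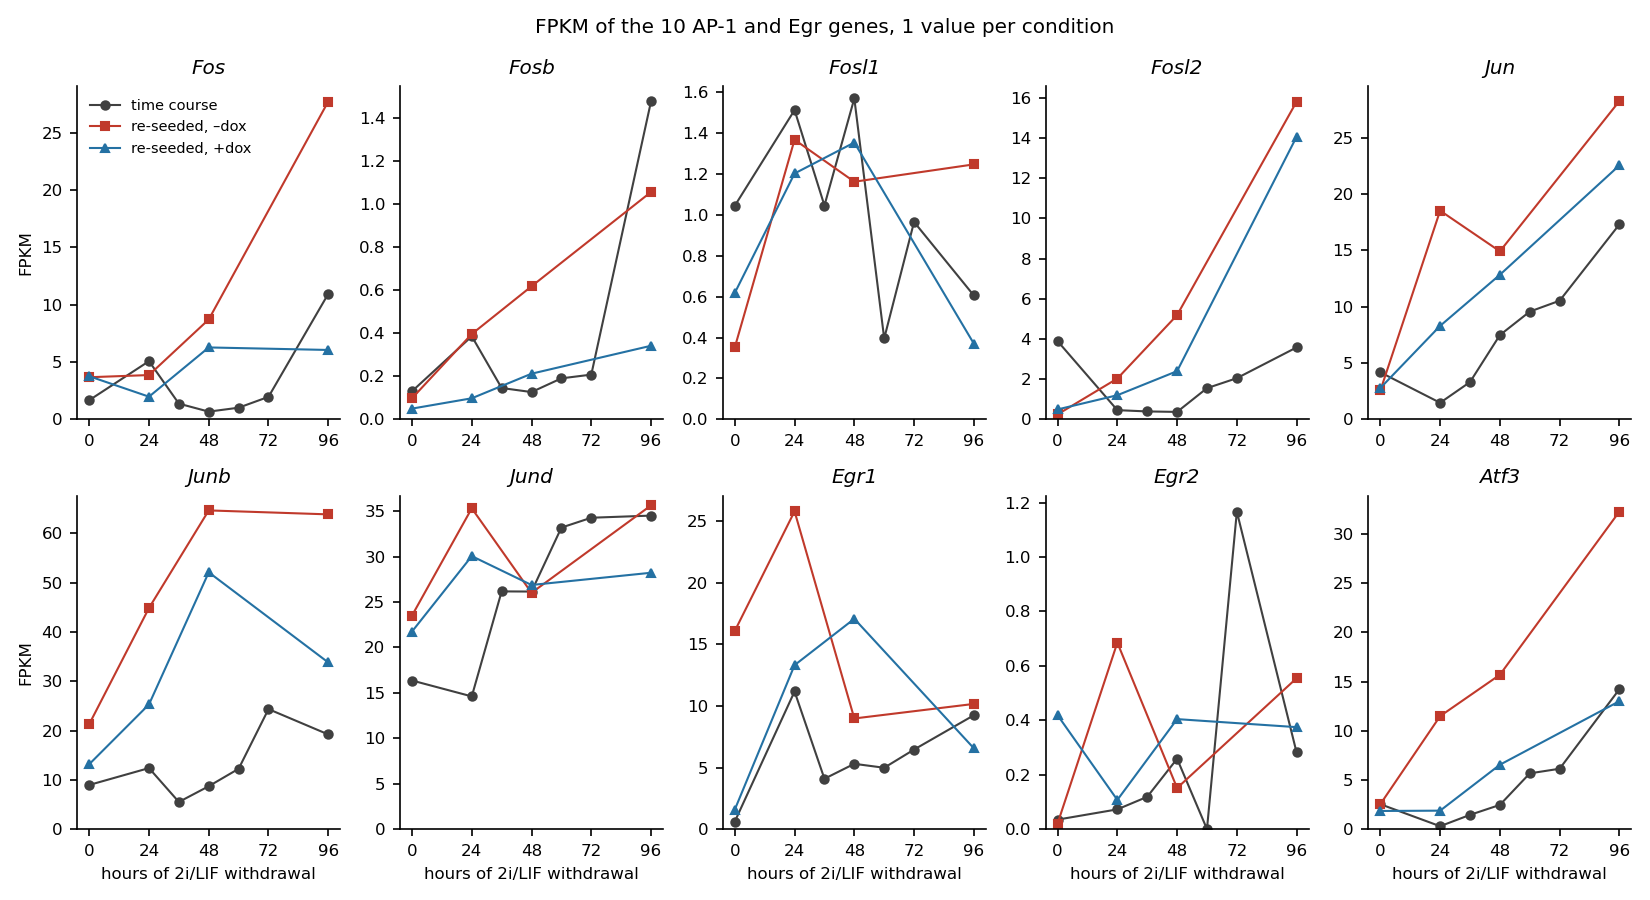
FPKM of the 10 genes against hours of 2i/LIF withdrawal, 1 value per condition with no error available; dark circles are the time course, red squares cells re-seeded –dox and blue triangles cells re-seeded +dox, and each panel has its own axis from 0. At 96 h the –dox values of Fos, Jun, Junb and Atf3 (27.7, 28.3, 63.9 and 32.3 FPKM) are above both other values of the same gene.

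The first question was how these genes behaved as the cells left pluripotency. At 24 h after withdrawal the members split: Egr1 was 18.2-fold and Fos 3.05-fold higher than at 0 h, while Atf3 was 8.67-fold, Fosl2 8.58-fold and Jun 2.85-fold lower. By 96 h the picture was different, with 7 members higher and none lower. They were Egr1 (15.1-fold), Fosb (11.4-fold), Fos (6.58-fold), Atf3 (5.63-fold), Jun (4.15-fold), Junb (2.15-fold) and Jund (2.11-fold).

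Of the 8 members that reached 1 FPKM at 0 or 24 h, 2 were higher and 3 lower at 24 h, against 8.64% higher and 14.3% lower of the 12882 genes that reached 1 FPKM. At 48 h, 1 was higher and 2 were lower of 8, against 12.1% and 17%. At 96 h, 7 were higher and 0 lower of 9, against 16.8% and 16.4%. The median log2 ratio of the members, with 0.1 FPKM added to each value, came to 0.15, 0.25 and 2.03 for these times, and that of all genes stayed between -0.02 and -0.01. These comparisons share the 0 h samples. Of the other times, 36 h had 1 member higher and 1 lower (background 11.3% and 16.8%), 60 h had 4 and 2 (13% and 16.1%), and 72 h had 6 and 0 (15% and 15.9%). Between 24 and 48 h 2 members were higher and 2 lower of 7 (8.59% and 8.21%). Between 48 and 96 h, a longer interval, 6 were higher and 1 lower of 9 (15.1% and 11%). From 24 to 96 h 6 were higher and 1 lower of 9 (20.5% and 16.3%), with Atf3 at 48.8-fold and Jun at 11.8-fold.

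Egr1, a zinc finger factor that responds to ERK and SRF, stood at 0.614 FPKM at 0 h, then 11.2 (24 h), 4.09 (36 h), 5.30 (48 h), 4.98 (60 h), 6.46 (72 h) and 9.24 (96 h). Within the time course it was low only in 2i/LIF and highest at the first time sampled after withdrawal. Egr2, its relative with roles in hindbrain and myelinating cells, lay between 0 FPKM, as listed at 60 h, and 1.17 FPKM at 72 h, and reached 1 FPKM at no other time. With values this low its ratios were not read further.

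Fos, the founding member of its family, stood at 1.66 FPKM at 0 h, then 5.07 (24 h), 1.36 (36 h), 0.664 (48 h), 1.01 (60 h), 1.95 (72 h) and 10.9 (96 h). It therefore had a first high value at 24 h, was below its 0 h value from 36 to 60 h, and was highest at 96 h. Fosb, at a lower level, also had a first high value at 24 h and its highest at 96 h, with 0.130 FPKM at 0 h, then 0.385 (24 h), 0.145 (36 h), 0.126 (48 h), 0.190 (60 h), 0.207 (72 h) and 1.48 (96 h). The log2(FPKM + 1) values of the pair had a Pearson r of 0.92 over the 7 timepoints. These share the line and, after 0 h, the medium.

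Fosl2, a Fos-related factor without the transactivation domain of Fos, stood at 3.89 FPKM at 0 h, then 0.453 (24 h), 0.389 (36 h), 0.366 (48 h), 1.55 (60 h), 2.05 (72 h) and 3.58 (96 h). Its course was a trough between 24 and 48 h, with the last value close to the first. Fosl1, the other member of this kind, ranged from 0.40 FPKM at 60 h to 1.57 at 48 h and met the 2-fold rule against 0 h only where it was lower, at 60 h.

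Jun, the AP-1 subunit activated by JNK, stood at 4.17 FPKM at 0 h, then 1.46 (24 h), 3.30 (36 h), 7.48 (48 h), 9.57 (60 h), 10.5 (72 h) and 17.3 (96 h). After the low value at 24 h each later value was higher than the one before. Atf3, a stress-responsive partner of Jun proteins, stood at 2.53 FPKM at 0 h, then 0.29 (24 h), 1.45 (36 h), 2.46 (48 h), 5.67 (60 h), 6.14 (72 h) and 14.2 (96 h). The courses of Jun and Atf3 were alike, with a Pearson r of 0.97 over the 7 timepoints.

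Junb, a Jun protein with weaker transactivation than Jun, stood at 8.95 FPKM at 0 h, then 12.4 (24 h), 5.50 (36 h), 8.70 (48 h), 12.2 (60 h), 24.3 (72 h) and 19.2 (96 h). Only the values at 72 and 96 h were at least 2-fold above 0 h. Jund, the Jun gene that many resting cells express, stood at 16.4 FPKM at 0 h, then 14.6 (24 h), 26.2 (36 h), 26.2 (48 h), 33.2 (60 h), 34.3 (72 h) and 34.5 (96 h). It was the highest of the 10 members at each of the 7 timepoints.

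Markers of other cells moved over the same hours. The 20 fibroblast markers examined summed to 1599 FPKM at 0 h with 19 of them at 1 FPKM or more, to 433 at 24 h, to between 180 and 242 from 36 to 72 h and to 384 at 96 h. No fibroblast marker was at 0 in the time course. Col1a1, a collagen gene of fibroblasts, went from 229 FPKM at 0 h to 21.0 (24 h) and 5.64 (96 h). Not all markers of the list took this course: Acta2, a smooth muscle actin gene also found in other contractile cells, went from 8.65 FPKM at 0 h to 24.4 (24 h) and 97.9 (96 h), and Thy1 from 4.01 FPKM to 8.10 (24 h) and 17.7 (48 h). The high values of Fosl2 and of Jun and Atf3 at 0 h against 24 h thus coincided with the largest fibroblast sum, and the part of fibroblast RNA in them was not tested. In these bulk samples fewer cells of a type and less RNA per cell cannot be told apart.

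Genes of simple epithelium moved with the late values. Krt8 and Krt18, the keratins of simple epithelia, were at 12.8 and 11.4 FPKM at 0 h and at 272 and 670 at 96 h. The 5 epithelial markers summed to 65.3 FPKM at 0 h and 1119 at 96 h, with 3 of them at 1 FPKM or more in both and Krt5, a basal keratin, at 0 at 96 h. The naive pluripotency markers, 11 genes, summed to 1677 FPKM at 0 h and 97.1 at 96 h. The part of these changes of state in the members' values was not tested.

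The negative feedback genes of ERK signalling were set beside Egr1. Of 9 such genes, 4 were higher and 0 lower at 24 h (8.64% and 14.3% over all genes). Their median log2 ratio was 0.89 against -0.01 over all genes. Spry4 went from 0.446 to 13.9 FPKM, Dusp6, a phosphatase specific for ERK, from 3.61 to 29.6 and Dusp4 from 1.78 to 16.2. These 3 genes were therefore low at 0 h and high at 24 h, as Egr1 was. At 96 h 5 of the 9 were higher and 2 lower than at 0 h (16.8% and 16.4%). The latter were Etv4 (23.2 to 2.17 FPKM) and Etv5 (106 to 15.9), both ETS factors. ERK activity was not measured, and its part in these values was not tested.

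**Figure D2:**
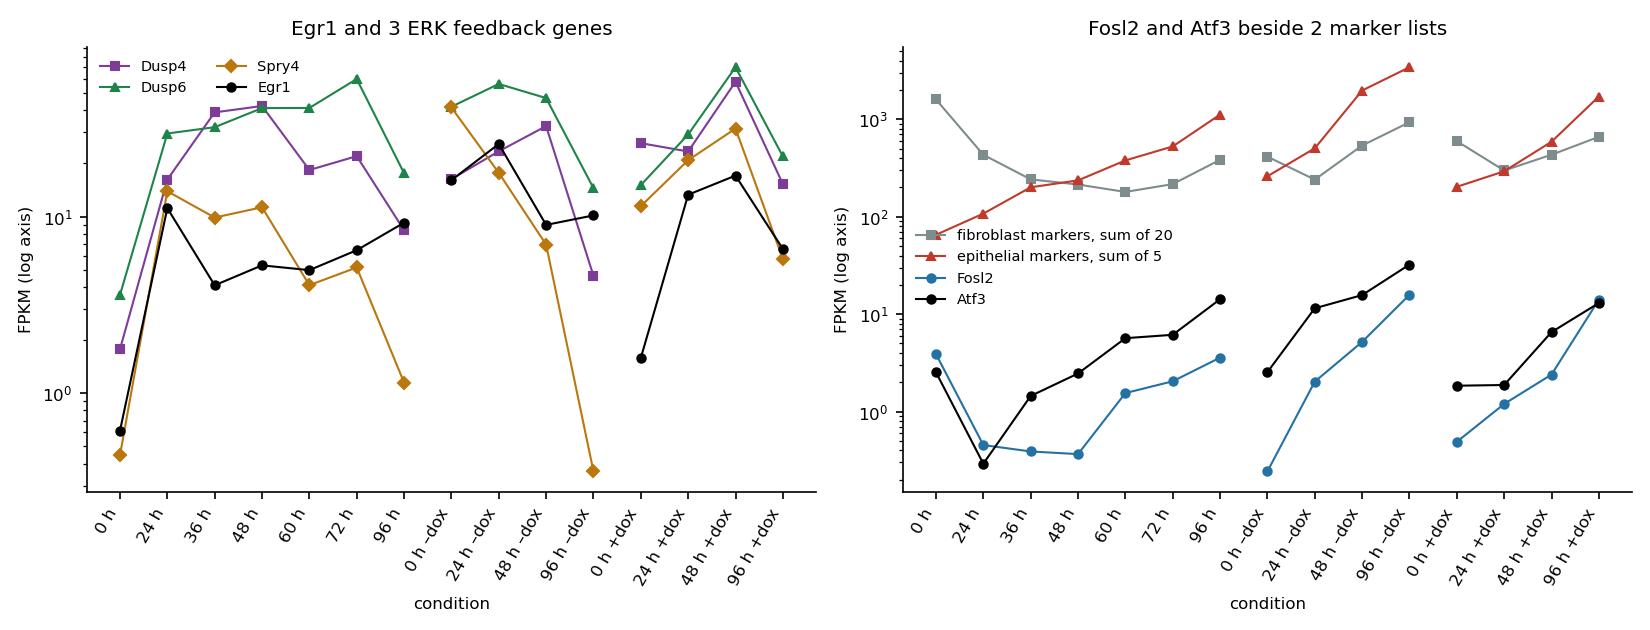
FPKM on a log axis by condition, with lines joining the time course, the –dox and the +dox cells: left, Egr1 with the ERK feedback genes Dusp4, Dusp6 and Spry4; right, Fosl2 and Atf3 with the summed FPKM of 20 fibroblast and 5 epithelial markers. Egr1 and the 3 feedback genes are lowest or near their lowest at 0 h (Egr1 0.614 FPKM), and the epithelial sum runs from 65.3 FPKM at 0 h to 3430 in the 96 h –dox cells.

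Other immediate early genes known to answer to ERK or SRF did not move in a single direction. Of 32 listed, 27 reached 1 FPKM at 0 or 24 h. Of these 6 were higher and 6 lower at 24 h (8.64% and 14.3% over all genes), with a median log2 ratio of 0.01. Dusp5, an ERK phosphatase, went from 1.37 to 5.01 FPKM and Csrnp1 from 7.60 to 24.0, while Ier3 went from 33.9 to 10.9 and Gadd45b, a growth arrest gene, from 24.7 to 7.99. Myc went from 2.53 to 40.7 FPKM, and reads of the cMyc transgene and of the Myc gene cannot be told apart in this value. At 96 h 10 of 27 were higher and 2 lower (16.8% and 16.4%), with a median log2 ratio of 0.67, led by Dusp5 at 42.8 FPKM. Cyr61, a matrix protein gene bound by SRF, went from 22.8 to 101 FPKM, and Sgk1, a kinase gene, went from 131 to 8.97.

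Of 22 kinases and factors upstream of the members, 21 reached 1 FPKM. Of these 1 was higher and 0 lower at 24 h (8.64% and 14.3% over all genes), and 3 were higher and 1 lower at 96 h (16.8% and 16.4%). Srf itself went from 7.60 FPKM at 0 h to 15.9 at 24 h and 24.9 at 96 h, and Mapk3, which encodes ERK1, from 32.4 to 81.8 at 96 h. Elk3, an ETS partner of SRF, went from 6.04 to 1.55 FPKM at 96 h. Of the 5 Egr partners and relatives, 3 reached 1 FPKM, with 1 higher at 24 h and 2 at 96 h and 0 lower at either. Wt1, a zinc finger gene of kidney and gonad development, went from 0.238 FPKM at 0 h to 4.82 (24 h) and 5.64 (96 h), and the co-repressor gene Nab1 from 3.77 to 8.18 at 96 h. Nab2, the other co-repressor gene, was at 5.30 and 9.45 FPKM and was not counted.

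Of 24 bZIP genes that can dimerise with AP-1 proteins, 18 reached 1 FPKM at 0 or 24 h. Of these 0 were higher and 6 lower at 24 h (8.64% and 14.3% over all genes). At 96 h 4 of 20 were higher and 1 lower (16.8% and 16.4%). At 24 h Jdp2, a repressor of AP-1, went from 14.3 to 2.66 FPKM, Cebpb from 7.54 to 1.80 and Ddit3, a stress factor, from 58.8 to 7.54. Ddit3 is also among the 10 genes of the integrated stress response, a pathway in which Atf3 acts. Of these 9 reached 1 FPKM, and 4 were lower and 0 higher at 24 h. Asns, an amino acid synthesis gene of that response, went from 594 to 144 FPKM and Trib3 from 28.8 to 13.3. Atf3 and these genes were thus lower together at 24 h, when Atf3 itself was at 0.29 FPKM. At 96 h 2 of the 10 were higher and 1 lower, and Chac1 went from 13.4 to 70.2 FPKM.

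Of 25 genes often given as targets of AP-1 or Egr factors, 19 reached 1 FPKM. Of these 2 were higher and 9 lower at 24 h (8.64% and 14.3% over all genes), and 4 higher and 9 lower at 96 h (16.8% and 16.4%). Plaur, the urokinase receptor gene, went from 1.97 to 7.57 FPKM at 24 h. Several of those furthest below 0 h at 96 h are also expressed by fibroblasts: Timp1 went from 176 to 21.5 FPKM, Vim from 382 to 63.3 and the chemokine gene Ccl2 from 70.7 to 0.822. These lower values came with the lower fibroblast sums given above, while the 4 target genes counted as higher at 96 h went the other way. At 24 h, when the fibroblast sum was already down to 433 FPKM, Vim was at 299, Timp1 at 62.6 and Ccl2 at 18.7. The part of fibroblast RNA in these values was not tested.

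The second question was what re-seeding in serum/LIF without dox did to these genes. Against cells of the same withdrawal time, the –dox cells from 0 h had Egr1 26.2-fold, Junb 2.38-fold and Fos 2.2-fold higher, and Fosl2 16.0-fold and Fosl1 2.97-fold lower. The cells from 24 h had Atf3 39.4-fold, Jun 12.7-fold, Fosl2 4.48-fold, Junb 3.62-fold, Jund 2.42-fold and Egr1 2.31-fold higher. In those from 48 h Fosl2 was 14.2-fold, Fos 13.1-fold, Junb 7.43-fold and Atf3 6.38-fold higher, and in those from 96 h Fosl2, Junb, Fos, Atf3 and Fosl1 were between 2.06-fold and 4.42-fold higher. Medium, 48 h of extra culture and re-seeding changed together, and what each did cannot be told apart.

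From 0 h, 3 members were higher and 2 lower of 8, against a background of 12% and 10.1%. From 24 h, 6 were higher and 0 lower of 8 (14.9% and 10.6%). From 48 h, 4 were higher and 0 lower of 8 (15.3% and 11.5%). From 96 h, 5 were higher and 0 lower of 9 (12.4% and 11.2%). Jun at 48 h (14.9 against 7.48 FPKM) lay just under the 2-fold rule.

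**Figure D3:**
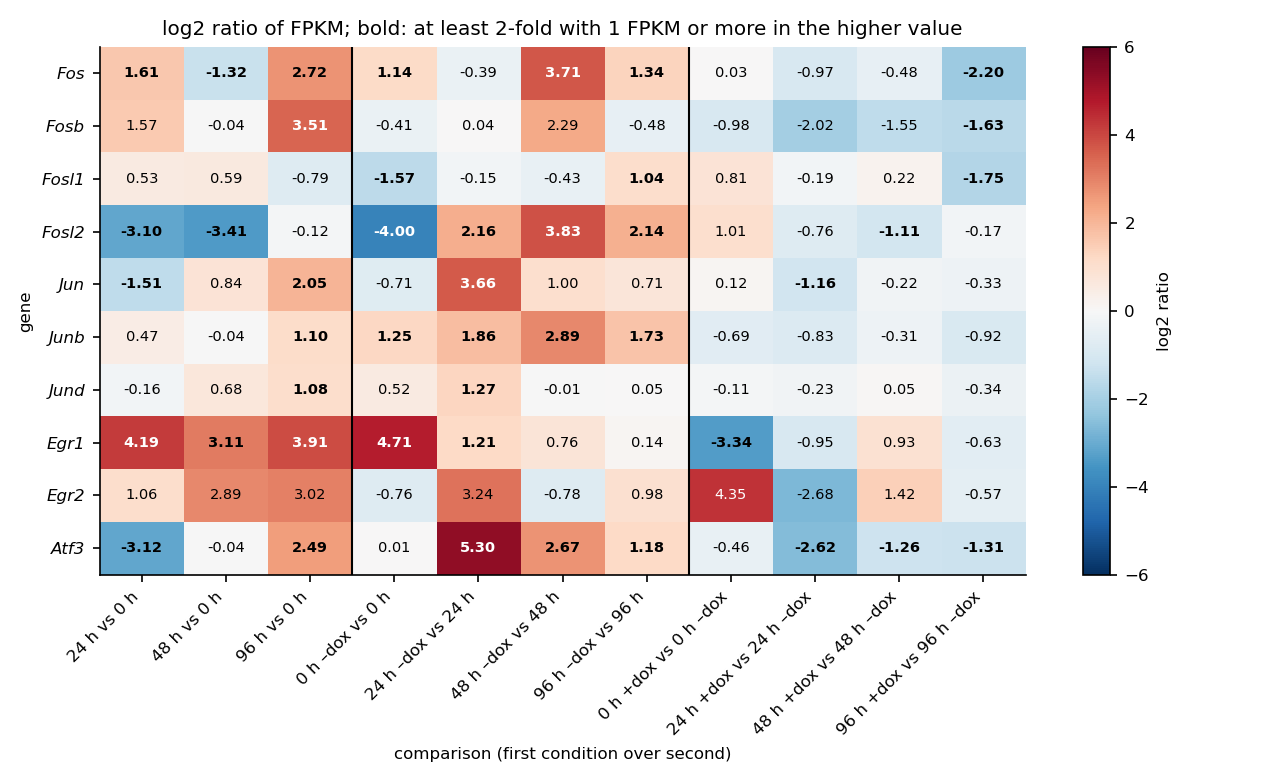
Log2 ratio of FPKM of each gene (rows) in 11 comparisons (columns, first condition over second), red where the first is higher and blue where it is lower, with black lines between the time course, re-seeding and dox; bold marks at least 2-fold with 1 FPKM or more in the higher value. The column of 24 h –dox cells holds the largest value of the plot, 5.30 for Atf3, and the 4 columns of +dox cells hold no bold positive value.

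Junb was at 21.3 FPKM in –dox cells from 0 h, 44.9 from 24 h, 64.7 from 48 h and 63.9 from 96 h. Each value was above the same time in the time course, where the highest was 24.3 FPKM. Fos was at 3.66, 3.85, 8.70 and 27.7 FPKM in the same order, and Fosl2 at 0.243, 2.03, 5.19 and 15.8. Both reached their highest value of the 15 conditions in the –dox cells from 96 h.

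Atf3 was at 2.54, 11.5, 15.7 and 32.3 FPKM in –dox cells from 0, 24, 48 and 96 h. It was thus higher the longer the cells had been withdrawn. Jun was at 2.56, 18.5, 14.9 and 28.3 FPKM, with its largest step between 0 and 24 h, and Jund at 23.5, 35.3, 26.0 and 35.6. Jund varied least of these genes, by less than 2-fold among the –dox conditions.

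Egr1 went another way, with 16.1 FPKM from 0 h, 25.8 from 24 h, 8.98 from 48 h and 10.2 from 96 h. Its highest value of the 15 conditions was in the –dox cells from 24 h, and it was lower in those withdrawn longer. Fosb was at 0.0975, 0.395, 0.617 and 1.05 FPKM, Fosl1 at 0.352, 1.37, 1.16 and 1.25, and Egr2 stayed below 1 FPKM.

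Among the –dox cells themselves, those from 24 h had 5 members higher and 0 lower than those from 0 h (background 8.72% and 11.4%), which were Fosl1, Fosl2, Jun, Junb and Atf3. In those from 48 h, Fos and Fosl2 were higher and Egr1 was 2.87-fold lower than in those from 24 h, 2 and 1 members (7.64% and 7.49%). In those from 96 h, Fos, Fosl2 and Atf3 were higher than in those from 48 h, 3 and 0 members (12.3% and 9.94%). The 48 h of re-seeding can also be matched by total time after 0 h. At 48 h in all, –dox cells from 0 h had Fos, Junb and Egr1 higher and Fosl1 and Jun lower than the time course, 3 and 2 of 7 (17.6% and 12.1%). At 72 h in all, 1 member, Egr1, was higher in –dox cells from 24 h than in the time course, 25.8 against 6.46 FPKM (5.41% and 4.89%). At 96 h in all, Junb was higher in –dox cells from 48 h, 64.7 against 19.2 FPKM, and Fosb lower, 0.617 against 1.48 (6.36% and 6.51%).

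At 72 and 96 h in all, most of the 9 members that reached 1 FPKM did not differ 2-fold. Atf3 was at 15.7 FPKM in the –dox cells from 48 h and 14.2 at 96 h of withdrawal, and Jun at 14.9 and 17.3. The median log2 ratio was 0.04 for 48 h in all, 0.81 for 72 h and -0.04 for 96 h. These comparisons share –dox samples with those at equal withdrawal time.

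The fibroblast markers in the –dox cells summed to 414 FPKM from 0 h, 241 from 24 h, 539 from 48 h and 935 from 96 h, with 8, 9, 13 and 14 of the 20 at 1 FPKM or more. Lum and Twist2 were at 0 in those from 0 h, and Col1a1 was at 1.45 FPKM there and 33.2 in those from 96 h. Acta2 (255 FPKM), Fn1 (104) and Sparc (405) made up most of the sum at 96 h. The Fosl2 value of 0.243 FPKM in those from 0 h came with collagen markers at or near their lowest. Other markers of the list were not low there, with Fn1 at 188 FPKM and Sparc at 210. Atf3 and Jun, also high at 0 h against 24 h of withdrawal, were not 2-fold lower there. Atf3 was at 2.54 FPKM against 2.53 at 0 h of the time course, and Jun at 2.56 against 4.17. In those from 24 h Col1a1 was at 1.54 FPKM and Fosl2 at 2.03. The epithelial sum was 260 FPKM from 0 h and 3430 from 96 h, with Krt8 at 1227 FPKM in the latter, and the part of either cell type in the members' values was not tested.

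The lists gave the following beside this. Over all genes, 12% were higher and 10.1% lower from 0 h, 14.9% and 10.6% from 24 h, and 12.4% and 11.2% from 96 h. Of the 32 ERK and SRF responsive genes, 27 reached 1 FPKM, and 14 were higher and 2 lower in –dox cells from 24 h than at 24 h. The median log2 ratio was 1.00 against -0.05 over all genes. Gadd45b went from 7.99 to 91.6 FPKM, Rhob from 4.27 to 33.2 and Cyr61 from 12.7 to 90.2. In cells from 96 h 10 of 28 were higher and 1 lower, with Nr4a2, an orphan nuclear receptor gene, going from 0.514 to 8.80 FPKM.

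Of the 24 bZIP partners, 21 reached 1 FPKM, and 10 were higher and 0 lower in –dox cells from 24 h. Ddit3 went from 7.54 to 83.7 FPKM, Cebpb from 1.80 to 18.7 and Maff, a small Maf gene also listed among the ERK and SRF genes, from 2.25 to 13.1. In cells from 96 h 4 of 21 were higher and 0 lower. Batf3, a dimer partner of Jun proteins best known in dendritic cells, went from 1.35 to 40.2 FPKM. Of the 10 stress response genes, 6 were higher and 0 lower from 24 h, with Chac1 going from 7.21 to 93.1 FPKM and Trib3 from 13.3 to 69.1. From 96 h 0 were higher and 2 lower, although Atf3 was 2.27-fold higher there.

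Of the 9 ERK feedback genes, 6 were higher and 0 lower in –dox cells from 0 h than at 0 h, with Spry4 at 41.5 FPKM against 0.446 and Dusp6 at 41.9 against 3.61. From 24 h 1 was higher and 0 lower, and from 96 h 0 were higher and 3 lower, with Etv5 at 4.73 against 15.9 FPKM. Egr1 showed the same order of size, with a log2 ratio of 4.71 from 0 h, 1.21 from 24 h and 0.14 from 96 h. Of the 25 target genes, 20 reached 1 FPKM from 0 h, with 4 higher and 11 lower, and 19 from 96 h, with 14 higher and 1 lower. The latter included Hbegf, a growth factor gene (3.42 to 22.3 FPKM), the tissue factor gene F3 (11.9 to 60.4) and Vim (63.3 to 299). Of the 22 upstream genes 21 reached 1 FPKM from 96 h, with 2 higher and 0 lower. Of the 5 Egr partners 3 did, with 1 higher, Nab1.

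The third question was what OSKM induction changed. In no +dox condition was a member counted as higher than in –dox cells of the same withdrawal time. Egr1 was 10.2-fold lower in +dox cells from 0 h. Atf3 was lower in those from 24 h (6.13-fold), 48 h (2.40-fold) and 96 h (2.48-fold). Jun was lower from 24 h (2.23-fold), Fosl2 from 48 h (2.17-fold), and Fos (4.59-fold), Fosl1 (3.37-fold) and Fosb (3.09-fold) from 96 h.

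From 0 h, 0 members were higher and 1 lower of the 6 that reached 1 FPKM, against 3.62% and 5.61% of all genes. From 24 h it was 0 and 2 of 8 (2.87% and 3.4%), from 48 h 0 and 2 of 8 (6.55% and 6.46%), and from 96 h 0 and 4 of 9 (6.67% and 11.1%). The median log2 ratio of the members was -0.28, -0.88, -0.26 and -0.92 in this order, and that of all genes lay between -0.02 and 0.05. These comparisons share the –dox samples with those of re-seeding.

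Fos was at 3.75 FPKM in +dox cells from 0 h, 1.97 from 24 h, 6.26 from 48 h and 6.04 from 96 h. It did not reach the 27.7 FPKM of the –dox cells from 96 h, and stayed below the 10.9 FPKM of the time course. Atf3 was at 1.84, 1.87, 6.54 and 13.0 FPKM, and Jun at 2.78, 8.30, 12.8 and 22.6. For Jun the distance to –dox was largest in cells from 24 h and under 2-fold later.

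Fosl2 was at 0.489, 1.20, 2.40 and 14.1 FPKM, so that at 96 h the +dox and –dox values (14.1 and 15.8) were close, in contrast to Fos at the same time. Junb was at 13.2, 25.3, 52.1 and 33.8 FPKM, lower than –dox in each, by 1.24-fold to 1.89-fold, and never by 2-fold. Jund was at 21.8, 30.1, 26.9 and 28.2 FPKM. Egr1 was at 1.58 FPKM from 0 h, 13.3 from 24 h, 17.1 from 48 h and 6.56 from 96 h, and from 48 h it was 1.90-fold above –dox. Fosl1 and Fosb were at 0.370 and 0.341 FPKM from 96 h, and Egr2 stayed below 1 FPKM.

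Over all genes, 3.62% were higher and 5.61% lower with dox from 0 h, 6.55% and 6.46% from 48 h, 6.67% and 11.1% from 96 h. Of the 9 ERK feedback genes, 0 were higher and 3 lower in +dox cells from 0 h. Spry2 went from 46.4 to 12.5 FPKM, Spry4 from 41.5 to 11.5 and Dusp6 from 41.9 to 15.1. From 48 h 3 were higher and 0 lower, namely Spry4 (31.5 against 6.95 FPKM), Etv4 (42.3 against 10.2) and Etv5 (118 against 57.2), and from 96 h 4 and 0, with Spry4 at 5.76 against 0.361 FPKM. Egr1 in the same comparisons had log2 ratios of -3.34, 0.93 and -0.63. Of the 32 ERK and SRF responsive genes, 27 reached 1 FPKM from 0 h, with 1 higher and 4 lower, and Ier2 went from 135 to 41.9 FPKM. From 96 h 5 of 28 were higher and 5 lower, with Nr4a2 going from 8.80 to 0.636 FPKM and Nr4a1 from 7.05 to 29.6.

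Of the 24 bZIP partners, 19 reached 1 FPKM from 0 h, with 2 higher and 0 lower. From 96 h 0 of 21 were higher and 5 lower, and Batf3 went from 40.2 to 2.0 FPKM and Cebpb from 38.4 to 15.7. Of the 10 stress response genes 1 was higher and 1 lower from 0 h, namely Ddit3 (63.1 to 201 FPKM) and Chac1 (42.8 to 4.98). From 24 h 0 were higher and 3 lower, Trib3, Chac1 and Ppp1r15a (2.87% and 3.4% over all genes). From 48 h 0 were higher and 2 lower (6.55% and 6.46%). Atf3 was lower at both of these times. From 96 h 0 were counted in either direction, and Atf3 was lower. Of the 25 target genes, 17 reached 1 FPKM from 0 h, with 2 higher and 0 lower. From 96 h 1 of 19 was higher and 6 lower, with Lgals1 going from 1237 to 232 FPKM and Vim from 299 to 105. None of the 22 upstream genes or the 5 Egr partners was counted in either direction from 0 or 96 h.

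The marker sums also differed with dox. In +dox cells the fibroblast sum was 597 FPKM from 0 h, 298 from 24 h, 433 from 48 h (with Lum at 0) and 661 from 96 h, against 935 –dox at 96 h, and 9, 9, 10 and 11 of the 20 markers reached 1 FPKM. The epithelial sum was 1715 FPKM at 96 h +dox against 3430 –dox, with Krt8 at 595 against 1227. The naive pluripotency sum was 553 FPKM at 48 h +dox against 214 –dox, and 87.7 against 64.0 at 96 h. Pou5f1 (the Oct4 gene), Sox2 and Klf4 are in this sum, and reads of their transgenes and own genes cannot be told apart. At 48 h they were at 204, 87.8 and 14.6 FPKM +dox against 72.6, 43.4 and 4.68 –dox. The other markers of the list were also higher +dox at 48 h, such as Esrrb at 56.2 FPKM against 8.31. The part of these differences in the values of Fos, Atf3 and the other members was not tested.

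Taking the families as sums, the Jun genes exceeded the Fos genes in every condition. The Jun sum was 29.5 FPKM at 0 h, 71.0 at 96 h of withdrawal, 128 in –dox and 84.6 in +dox cells from 96 h. The Fos sum was 6.73 FPKM at 0 h, 2.73 at 48 h, 16.6 at 96 h, 45.8 in –dox and 20.8 in +dox cells from 96 h. The Fos genes thus held between 5.40% of the combined sum, at 60 h, and 26.4%, in –dox cells from 96 h.

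The leading gene of each family changed between conditions. Jund led the Jun family at each timepoint of withdrawal, with between 48.6% and 74.8% of its sum, in both sets of cells re-seeded from 0 h and in +dox cells from 24 h. Junb led in –dox cells from 24, 48 and 96 h, with 45.5%, 61.2% and 50.0%, and in +dox cells from 48 and 96 h. In the Fos family, Fosl2 led at 0, 60 and 72 h, Fosl1 at 48 h and Fos at 24, 36 and 96 h. Fos led in each –dox condition, with 60.5% at 96 h, whereas Fosl2 held 67.6% in +dox cells from 96 h.

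**Figure D4:**
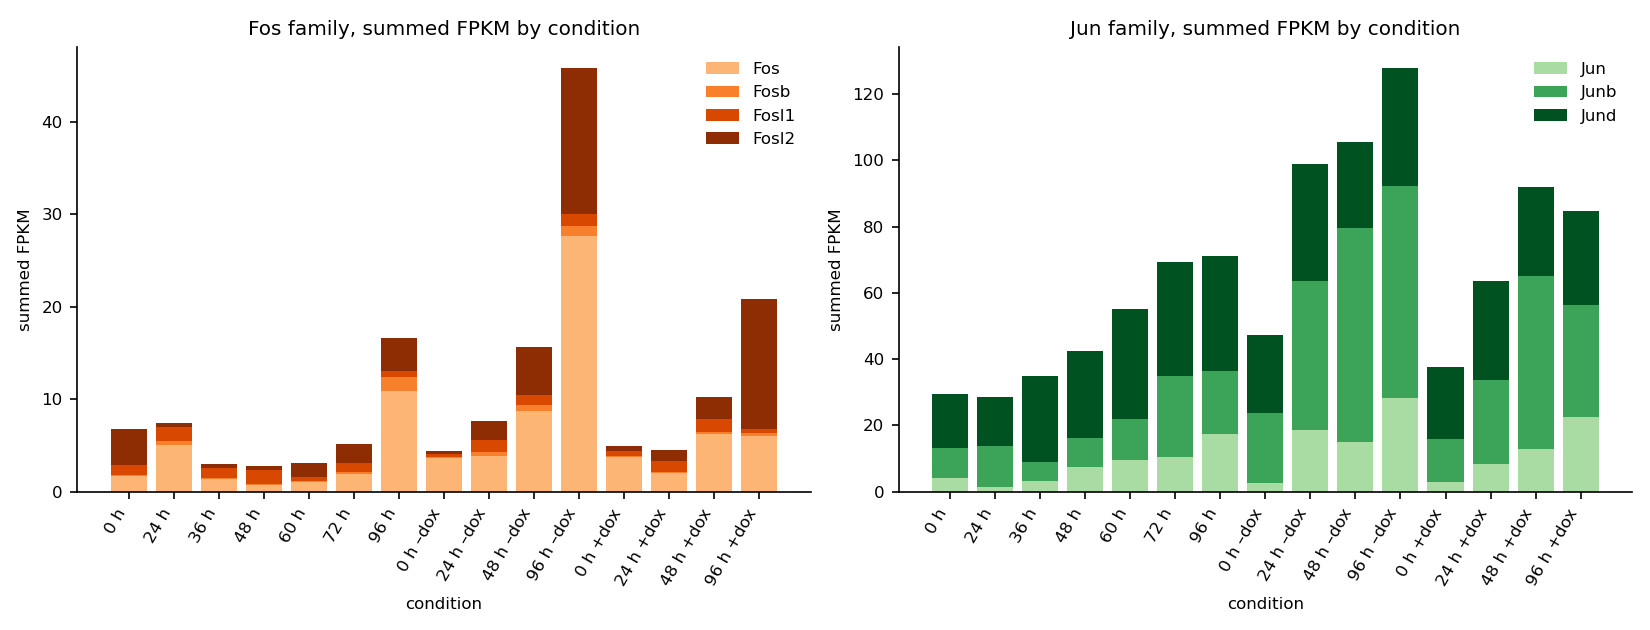
Summed FPKM (axis from 0) of the Fos genes, left, and of the Jun genes, right, in the 15 conditions, each bar stacked by gene. The –dox cells from 96 h have the highest bar in both, 45.8 and 128 FPKM, and the Fosl2 layer makes up 67.6% of the Fos bar in +dox cells from 96 h.

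Over the 15 conditions, levels of some pairs went together and others did not. The Pearson r of log2(FPKM + 1) was 0.93 for Jun and Atf3, 0.83 for Fosl2 and Atf3, 0.79 for Fosl2 and Jun and 0.79 for Fos and Fosb. It was 0.36 for Egr1 and Jun, 0.30 for Egr1 and Atf3 and 0.02 for Fos and Fosl1. The 15 points share the line, the table and its normalization, and successive times are not independent.

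Among 9066 genes that reach 10 FPKM, those with courses most like the members were named by the same r. For Jun they were Tulp4 (0.97), Klf6 (0.97), itself an immediate early gene, and Ilk (0.96). For Atf3 they were Tsc22d3 (0.97), a glucocorticoid-induced gene, Farp1 (0.95) and Krt8 (0.94). For Fosl2 they were Erbb2ip, Wls and Caskin2 (0.96, 0.96 and 0.95), and for Fos Il11ra1 (0.92), F2r (0.91), a thrombin receptor gene, and Tmcc1 (0.89).

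Junb was most like Slc35f5 (0.93), Clu (0.92) and Sfn (0.91), and Jund most like Tmem189 (0.93), Sort1 (0.93) and Smo (0.91). Egr1 had the lowest r of these 7 genes, with 0.80 for Pwwp2b, 0.78 for Bcdin3d and 0.76 for B3gnt7. Ranked by Spearman's rho instead, between 0 and 2 of the 3 named genes stayed the same for each member. Among genes that reach 1 FPKM, 2 or 3 stayed for each member except Fosl2, with 0. The names thus depend on the measure and, for Fosl2, on the minimum.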

How the data were processed

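Polyadenylated RNA of 30 samples, 2 in each of 15 conditions, was sequenced by the authors. Per the paper's methods and the submitters' processing notes, reads were mapped to mm10 with TopHat2 2.0.14, and Gencode transcripts were quantified with Cufflinks 2.2.1 and Cuffdiff. The deposited FPKM table holds 1 value per gene and condition, in which the authors combined both replicates, and 5 columns of their own calls, which were not used. Of its 22477 rows, 4 with a repeated symbol were left out of counts over all genes.

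FPKM values summed to between 603244 and 832454 per condition and were used without further scaling. Fragment counts are not known. Ratios had no pseudocount, medians of log2 ratios used 0.1 FPKM and correlations used log2(FPKM + 1). Combined values allow no test and no standard deviation, and the planned design therefore gave counts and ratios only, whose calculation was checked on simulated data. Tools were Python 3.11.15, numpy 2.4.6, pandas 2.3.3 and matplotlib 3.10.9. Alternatives were tried for the minimum, the fold, the pseudocount and the scaling.

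All 10 members are named with values. From each of 7 gene lists, at most 6 genes per comparison with the largest log2 ratio among genes reaching 5 FPKM could be named, and for members reaching 5 FPKM the 3 genes of highest Pearson r. The lists were of ERK and SRF responsive genes, ERK feedback genes, Egr partners, bZIP partners, upstream kinases and factors, AP-1 and Egr targets and integrated stress response genes. Members and lists were chosen with earlier results of these data known. Gene positions are from Gencode M21 and promoter windows from RefSeq (GRCm38.p6).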

Additional observations from a re-analysis of the deposited data

Results flagged for a closer look

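Among ratios of –dox cells to the time course at the same withdrawal time, 2 members met the 2-fold rule as lower at 1 withdrawal time and as higher at another. Other members whose ratios changed sign without meeting the rule both ways, such as Jun (-0.71 from 0 h and 3.66 from 24 h), are not listed here. Fosl2 had a log2 ratio of -4.00 in cells from 0 h, and of 2.16 from 24 h, 3.83 from 48 h and 2.14 from 96 h. Fosl1 had a log2 ratio of -1.57 from 0 h and of 1.04 from 96 h, with its higher value at 1.05 and 1.25 FPKM. Each condition has a single combined value, and these differences between withdrawal times were not tested. At 0 h the fibroblast markers summed to 1599 FPKM in the time course and 414 in the –dox cells, and their part in the value was not tested.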

How the results depend on the processing

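No paired analysis was possible because the table has no replicate columns, and for the same reason no replicate could be left out. Counts of members are given here as higher or lower in the first condition of a comparison. Of 22 counts, 17 stayed within 1.5 times their value with a 1.5-fold threshold, 16 with 3-fold, 15 with 1 FPKM required in both values, 17 with no minimum, 18 with a pseudocount of 1 FPKM, 20 after scaling to equal FPKM sums and 22 after scaling by median ratios. With no minimum, 4 were higher at 24 h and 2 at 48 h than at 0 h, and with dox 2 were higher from 0 h, 4 lower from 24 h and 1 higher from 48 h. With 1 FPKM in both values, 1 was higher and 1 lower at 24 h, 0 higher and 0 lower at 48 h, 0 lower in –dox cells from 0 h, 2 higher in those from 48 h, and 2 lower with dox from 96 h. With 1.5-fold, 4 were higher at 48 h and 1 lower at 96 h, and with dox 2 were lower from 0 h, 6 lower from 24 h and 1 higher from 48 h. With 3-fold, 1 was lower at 48 h, 1 higher and 1 lower in –dox cells from 0 h, 2 higher in those from 96 h, and with dox 1 was lower from 24 h and 0 from 48 h. The pseudocount left 1 lower at 48 h, 1 lower in –dox cells from 0 h, and with dox 1 lower from 48 h and 2 from 96 h. Equal sums left 1 lower in –dox cells from 0 h and 4 lower with dox from 24 h. The cause was not tested where the setting itself does not give it. Equal sums shifted the log2 ratios of all genes by between -0.23 and 0.27. No member's log2 ratio that met the 2-fold rule changed sign under the pseudocount or either scaling. Of 110 ratios, equal sums changed the sign of 6, each at most 0.15 in size as reported, median ratios that of 1 and the pseudocount that of 0, and the pseudocount moved 35. Fragment counts behind the values are not known.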
